A study of Mus musculus with 12 samples.

Results

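The *Srrm2* gene, its paralogs of the serine/arginine repetitive matrix (SRRM) family and the best known RNAs of the bodies that SRRM2 helps to build were followed through RNA interference against *Srrm2* in mouse embryonic stem cells (mESC). The set was chosen by gene symbol and holds 8 of the 42450 genes in the count table: *Srrm2*, *Srrm1*, *Srrm3*, *Srrm4*, *Son*, *Mir5125*, *Malat1* and *Neat1*. The question was whether loss of *Srrm2* RNA moves its paralogs, the other speckle scaffold gene *Son*, or the speckle and paraspeckle RNAs. All 8 passed the filter on low counts. The cells were male wild-type E14tg2a.4, a feeder-independent line of pluripotent cells kept with the cytokine LIF, and every library came from cells moved to serum-free ESGRO medium with LIF for the last 24 h or 72 h. Srrm2-KD cells received 50 nM siRNA against *Srrm2*, and Gl2-KD control cells received 50 nM siRNA against Gl2, the firefly luciferase gene, which mouse cells lack. Both were collected at 24 h, or transfected again with the same siRNA and collected at 72 h. Each of the 4 groups has 3 polyA RNA libraries, 1 from each of 3 experiments, which gives 12 libraries. The model is a transient and partial knockdown in 1 cell line, and the labels do not say which of the siRNAs against *Srrm2* each library received.

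Nuclear speckles are bodies in the nucleus that store and modify splicing factors, and SRRM2 and SON, large proteins with long disordered regions rich in serine and arginine, form their core. SRRM1 works with SRRM2 as a coactivator of splicing, while SRRM3 and SRRM4 promote the inclusion of microexons, very short exons used mostly in neurons. MALAT1 is an abundant noncoding RNA that gathers in nuclear speckles, and NEAT1 is the noncoding RNA around which paraspeckles, neighbours of the speckles, are built.

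Totals ranged from 73933196 to 153343831 estimated counts per library. The line's own markers were high in every library, with a summed level of 3561 to 4610 CPM over 8 pluripotency genes such as *Pou5f1* and *Nanog*. At 72 h the sum was 3561 to 3703 CPM in Srrm2-KD and 3872 to 4088 CPM in Gl2-KD, so these groups did not overlap. At 24 h it was 4012 to 4554 CPM in Srrm2-KD and 4283 to 4610 CPM in Gl2-KD, which overlapped. In both siRNAs the sum was thus also lower at 72 h than at 24 h, without overlap. The part of these differences in the results at 72 h was not tested. The sums stayed at 88.59 to 181.5 CPM over 8 neural genes, 6.153 to 26.78 CPM over 6 fibroblast genes, 2.032 to 4.583 CPM over 6 primitive endoderm genes and 2.785 to 7.378 CPM over 4 mesoderm genes, with *Col3a1*, *Sox17*, *Mixl1* and *Mesp1* at 0 in their lowest library. Here CPM is the count scaled to library size, with the sizes set by the trimmed mean of M-values (TMM). Experiment 1 stood apart from the others on the first principal component, which took 42.03% of the variance, and had the highest share of counts on mitochondrial genes, 3.85% to 4.23% against 2.36% to 3.41%. Each value below is therefore given by experiment, and experiment 1 is described on its own further on.

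*Srrm2* lies on chromosome 17 from 23790532 to 23824741 on the plus strand (GRCm38, GENCODE M21), and its longest annotated transcript has 8864 nucleotides in 15 exons. *Mir5125* is annotated inside it, from 23823291 to 23823369 on the same strand. These 79 nucleotides lie within intron 12 of that longest transcript, which spans 23822701 to 23823790, and share 0 exonic nucleotides with *Srrm2*. The hairpin is shown because it is the stretch to which the *Mir5125* counts are assigned, with the mature miRNA in capitals, followed by the mature miRNA with its seed (bases 2 to 8) in capitals. Both are RefSeq sequences on GRCm38.p6, the mature part at chr17:23823339-23823358 on the plus strand.
Mir5125 hairpin: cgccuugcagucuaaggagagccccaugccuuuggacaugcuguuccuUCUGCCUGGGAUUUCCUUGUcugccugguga
mmu-miR-5125: uCUGCCUGggauuuccuugu
Of the 1738 mature mouse miRNAs in the RefSeq table, 1, miR-5125 itself, has this seed. PolyA libraries with reads longer than the hairpin do not measure a mature miRNA, so the *Mir5125* values below count fragments assigned to the 79 nucleotides, and from which RNA these came was not tested.

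*Malat1* (chromosome 19, 5795690 to 5802672, minus strand) and *Neat1* (chromosome 19, 5824708 to 5845478, minus strand) are neighbours. Their long transcripts, annotated with 6983 and 20771 nucleotides, are known to end in a cleaved A-rich tract that folds into a triple helix in place of a polyA tail, while the short *Neat1* transcript ends in a usual polyA tail. The ends are shown because the libraries were made from polyA RNA, and the effect of that selection on either gene was not tested. The tract of *Malat1* is shown at positions 6612 to 6691 of its transcript (chr19:5795982-5796061), long *Neat1* over its last 80 nucleotides (chr19:5824708-5824787) and short *Neat1* over its last 40 (chr19:5842307-5842346), all on the minus strand in GENCODE M21. Capitals mark the longest stretch that both long ends share upstream of the tract and the shared end of the tract, and, in short *Neat1*, the polyadenylation signal AATAAA.
Malat1: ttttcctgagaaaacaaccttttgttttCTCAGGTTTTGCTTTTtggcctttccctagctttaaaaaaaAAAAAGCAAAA
Neat1 long: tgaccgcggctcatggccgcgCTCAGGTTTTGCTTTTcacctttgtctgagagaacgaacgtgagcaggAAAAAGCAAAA
Neat1 short: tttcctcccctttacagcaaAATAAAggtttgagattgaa
The 16-base stretch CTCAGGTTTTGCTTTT occurred, on the transcript strand, in transcripts of 2 of the 55450 annotated genes (0.00361%), which are *Malat1* and *Neat1*. The 11-base stretch AAAAAGCAAAA occurred in 376 genes (0.678%). The table gives 1 value per gene, so the short and the long *Neat1* transcripts cannot be told apart in it.

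The levels were compared between genes per kb of each gene's longest annotated transcript. By the median over the 12 libraries, *Srrm1* was highest with 61.9 CPM per kb, followed by *Malat1* with 52.9, *Srrm2* with 51.3, *Mir5125* with 39.03, *Son* with 24.4, *Neat1* with 9.14, *Srrm3* with 0.253 and *Srrm4* with 0.118 CPM per kb. The ranges of neighbours overlapped from *Srrm1* down to *Neat1*, for example 43.0 to 84.0 CPM per kb for *Srrm1* against 32.1 to 115 for *Malat1*, and again between *Srrm3* (0.145 to 0.469) and *Srrm4* (0.0602 to 0.166). The lowest library of *Neat1*, 6.11 CPM per kb, lay above the highest of *Srrm3*, so the microexon regulators of the family were set apart from all other members. *Srrm3* and *Srrm4* rested on 60 to 242 and 33 to 201 counts per library. The value per kb of *Mir5125* uses its 79 annotated nucleotides, which are shorter than a read, and is not that of a mature miRNA. That of *Neat1* uses the 20771 nucleotides of its long transcript, while the short one has 3004. Which of them the counts came from was not tested, so the place of *Neat1* in this order depends on the length used.

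**Figure D1:**
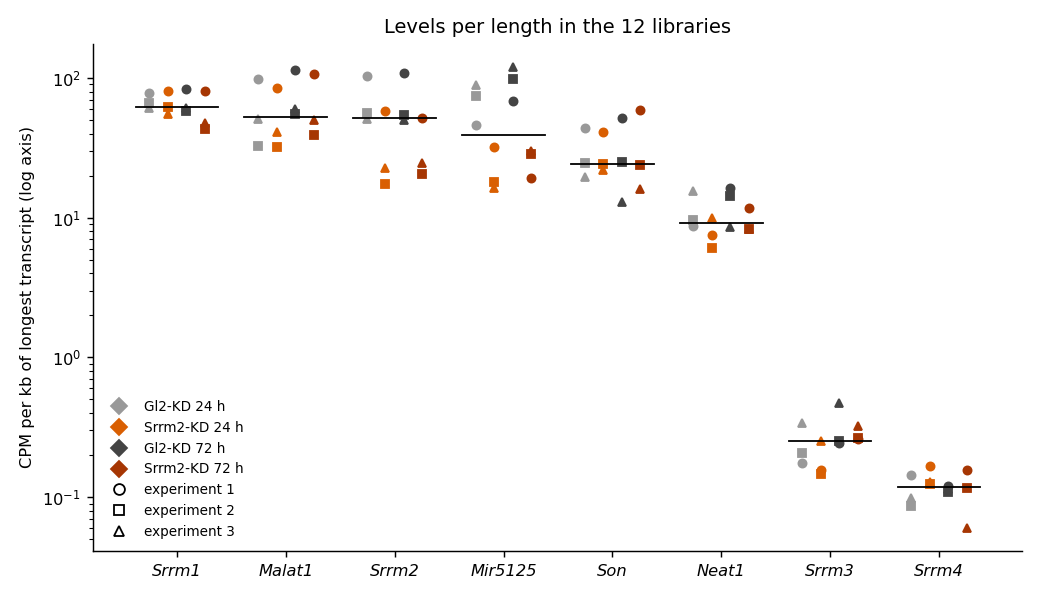
Level of each gene in CPM per kb of its longest transcript (log axis) in the 12 libraries, with colour for the siRNA and time, symbol shape for the experiment and a bar at the median of the 12. *Srrm3* and *Srrm4*, with medians of 0.253 and 0.118, sit below the other 6 genes in every library.

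*Srrm2*, the targeted gene, was lower in Srrm2-KD than in Gl2-KD in all 6 pairs of libraries from the same experiment and time. In such bulk libraries, a lower level in each cell and fewer cells with the RNA cannot be told apart. At 24 h, the Gl2-KD libraries of experiments 1, 2 and 3 held 911, 496 and 449 CPM and the Srrm2-KD libraries 517, 154 and 200 CPM. At 72 h they held 962, 479 and 442 CPM against 461, 182 and 217 CPM. The groups overlapped at both times, with experiment 1 high in both siRNAs. Its Srrm2-KD library at 24 h lay above the Gl2-KD libraries of the other two experiments. Within experiments, 56.7%, 31.0% and 44.5% of the control level was left at 24 h and 47.9%, 37.9% and 49.1% at 72 h.

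Averaged over both times, the log2 fold change of *Srrm2* was -1.19 ± 0.10 (SE), or 43.8% of the control level, with an adjusted p of 0.00254 by edgeR's quasi-likelihood test, the smallest p of all genes. It was also the gene with the smallest p at each time alone, with -1.22 ± 0.14 at 24 h and -1.16 ± 0.14 at 72 h. After adjustment over 19410 genes these separate comparisons did not pass the threshold of 0.05 (adjusted p = 0.0663 and 0.0991), and DESeq2 (3.37e-11 and 1.76e-09) and limma-voom (0.0277 and 0.0218) passed it at both times. The call on the average held without each of the 12 libraries in turn, with log2 fold changes of -1.28 to -1.11. It was lost without experiment 2 (-1.02, adjusted p = 0.0899) or experiment 3 (-1.24, adjusted p = 0.102).

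*Mir5125*, in the intron of *Srrm2*, was also lower in 6 of 6 pairs. In experiments 1, 2 and 3 it was at 3.64, 5.88 and 7.07 CPM in Gl2-KD and 2.53, 1.42 and 1.29 CPM in Srrm2-KD at 24 h. At 72 h the values were 5.44, 7.77 and 9.46 CPM in Gl2-KD and 1.53, 2.24 and 2.39 CPM in Srrm2-KD. The groups did not overlap at either time, as held for 1.55% (24 h) and 3.67% (72 h) of all genes in this direction. The weakest pair was experiment 1 at 24 h, with 69.7% of the control level left, and the other pairs kept 18.3% to 28.9%.

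The averaged log2 fold change of *Mir5125* was -1.73 ± 0.24 (SE), or 30.2% of the control level, with an adjusted p of 0.0276 by edgeR. At 24 h and 72 h alone it was -1.58 ± 0.34 and -1.88 ± 0.34 (adjusted p = 1 and 0.124). Its counts, 122 to 1243 per library, amounted to 0.399% to 2.14% of the *Srrm2* counts in Gl2-KD and 0.331% to 1.23% in Srrm2-KD. Within an experiment and time this share was lower in Srrm2-KD in 5 of 6 pairs, the exception being experiment 1 at 24 h with 0.490% against 0.399%. Leaving out 1 library ended the *Mir5125* call in 9 of 12 cases (adjusted p = 0.0512 to 0.153), with log2 fold changes of -2.04 to -1.57 over the 12. The call held without the Gl2-KD library of experiment 1 at 24 h (0.0392) or at 72 h (0.0489) and without the Srrm2-KD library of experiment 1 at 24 h (0.000182), the one in which *Mir5125* fell least. It was lost without experiment 2 (-1.65, adjusted p = 0.881) or experiment 3 (-1.51, adjusted p = 0.331).

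**Figure D2:**
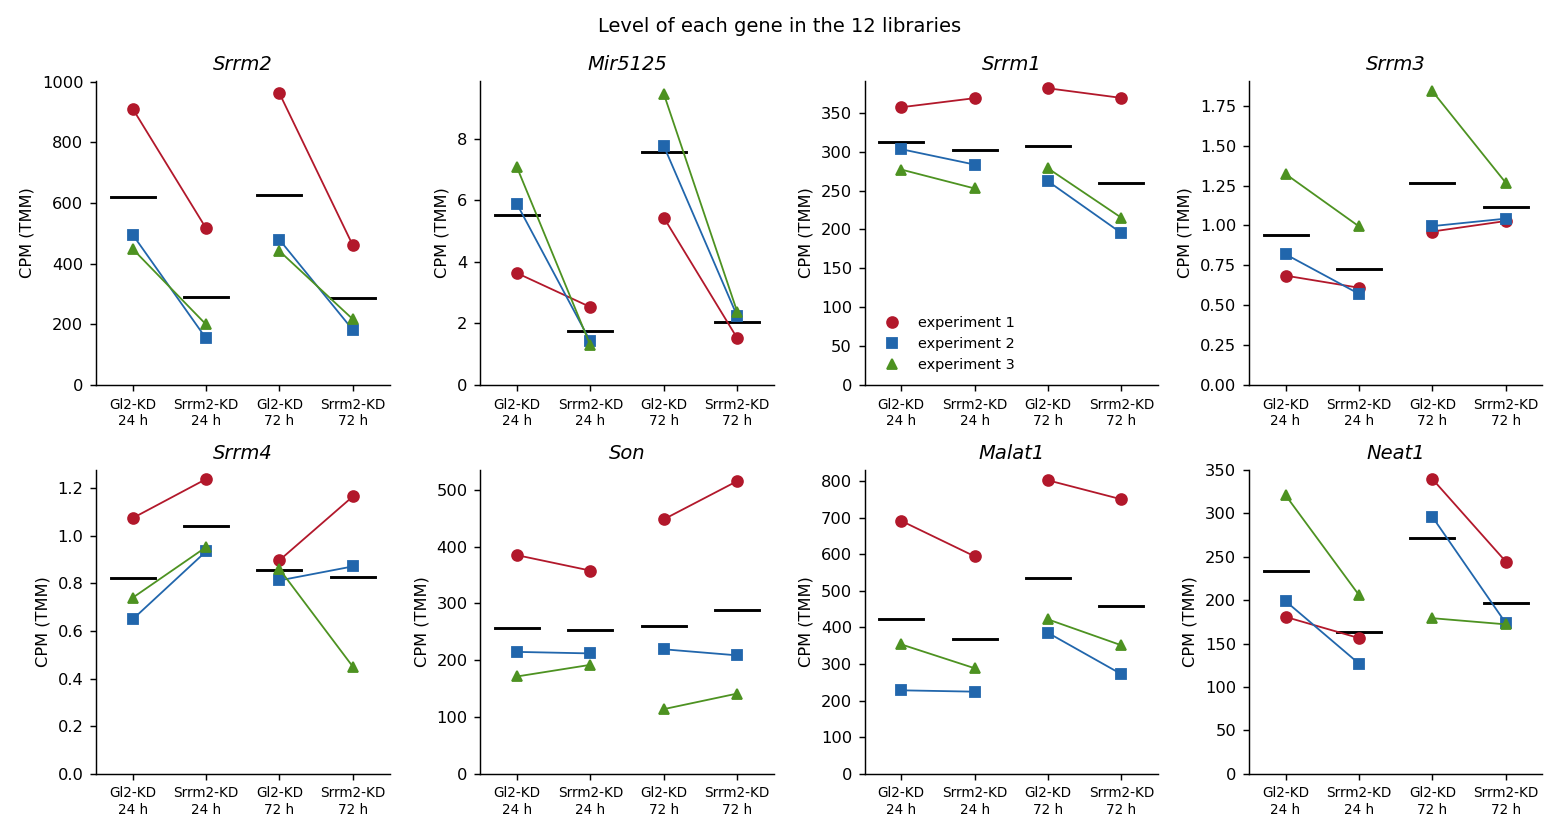
CPM (TMM) of each of the 8 genes, 1 panel a gene with its own linear axis from 0, for Gl2-KD and Srrm2-KD at 24 h and 72 h. Points are libraries coloured by experiment, thin lines join the 2 siRNAs of an experiment, and black bars are means of 3 libraries. *Srrm2* and *Mir5125* fall along every line, *Malat1* and *Neat1* do so by less, and experiment 1 is highest for *Srrm2*, *Srrm1*, *Son* and *Malat1*.

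*Srrm1*, the paralog at a level like that of *Srrm2*, was at 357, 303 and 277 CPM in Gl2-KD and 369, 283 and 253 CPM in Srrm2-KD at 24 h, in the order of the experiments. The 72 h levels were 382, 262 and 279 CPM in Gl2-KD and 369, 195 and 215 CPM in Srrm2-KD. The groups overlapped at both times, and the level was lower in 5 of 6 pairs, by most in experiments 2 and 3 at 72 h with 74.6% and 77.2% of the control. Its averaged log2 fold change of -0.17 ± 0.08 (SE) did not pass the test (adjusted p = 0.408), nor did the -0.27 ± 0.12 at 72 h (adjusted p = 0.36). The 95% interval of the average ran from -0.35 to 0.01.

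*Srrm3*, a microexon regulator, was near 1 CPM throughout. At 24 h it was at 0.686, 0.820 and 1.32 CPM in Gl2-KD and 0.610, 0.572 and 0.995 CPM in Srrm2-KD, which was lower in 3 of 3 pairs. At 72 h it was at 0.962, 0.996 and 1.84 CPM in Gl2-KD and 1.03, 1.04 and 1.27 CPM in Srrm2-KD, which was higher in 2 of 3. Experiment 3 held the highest value within each group. The averaged log2 fold change was -0.25 ± 0.17 (SE; 95% interval -0.61 to 0.12, adjusted p = 0.564).

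*Srrm4*, the neural paralog of *Srrm3*, was at 1.07, 0.649 and 0.739 CPM in Gl2-KD and 1.24, 0.934 and 0.952 CPM in Srrm2-KD at 24 h, higher in 3 of 3 pairs. The 72 h levels were 0.897, 0.812 and 0.860 CPM in Gl2-KD and 1.17, 0.871 and 0.450 CPM in Srrm2-KD, higher in 2 of 3. The last of these, experiment 3, was the lowest *Srrm4* value of all, at 52.3% of its control and 33 counts. Over both times, the log2 fold change of 0.13 ± 0.20 (SE; 95% interval -0.32 to 0.58, adjusted p = 0.827) did not pass the test.

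*Son*, the partner of *Srrm2* in the speckle core, differed more between experiments than between siRNAs. At 24 h it was at 385, 215 and 171 CPM in Gl2-KD and 358, 212 and 192 CPM in Srrm2-KD. The 72 h levels were 448, 219 and 114 CPM in Gl2-KD and 515, 208 and 141 CPM in Srrm2-KD. It was higher in 3 of 6 pairs and lower in the other 3, and within every group experiment 1 was the highest and experiment 3 the lowest. Averaged over the times, its log2 fold change was 0.08 ± 0.13 (SE; adjusted p = 0.817), and its 95% interval of -0.20 to 0.36 does not reach the fall measured for *Srrm2*. *Son* shares 103 exonic nucleotides with *Donson* on the opposite strand, and the sources do not say whether strand was used in the counting.

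*Malat1*, the speckle RNA, was lower in Srrm2-KD in 6 of 6 pairs, by small amounts. At 24 h it was at 692, 228 and 354 CPM in Gl2-KD and 595, 224 and 289 CPM in Srrm2-KD. At 72 h it was at 802, 385 and 422 CPM in Gl2-KD and 750, 272 and 351 CPM in Srrm2-KD. The pairs kept 70.7% to 98.4% of the control level, and the groups overlapped since the experiments differed by far more. The averaged log2 fold change of -0.24 ± 0.07 (SE; 95% interval -0.40 to -0.07) had a p of 0.00854 that became 0.202 after adjustment and did not pass the test.

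*Neat1*, the paraspeckle RNA, was lower in Srrm2-KD in 6 of 6 pairs as well, by unequal amounts. It was at 181, 199 and 321 CPM in Gl2-KD and 156, 127 and 206 CPM in Srrm2-KD at 24 h. At 72 h it was at 340, 296 and 179 CPM in Gl2-KD and 245, 174 and 172 CPM in Srrm2-KD. The largest fall was in experiment 2 at 72 h with 58.6% of the control left, and the smallest in experiment 3 at 72 h with 96.1%. The averaged log2 fold change of -0.50 ± 0.19 (SE; 95% interval -0.93 to -0.08) had a p of 0.0245, which became 0.287 after adjustment over all genes. Over the libraries and experiments left out, the average ran from -0.66 to -0.32. It was -0.32 (adjusted p = 0.578 by edgeR) without the Gl2-KD library of experiment 3 at 24 h, the highest of its group. There the 24 h value went from -0.53 to -0.17. It was -0.66 (adjusted p = 0.179 by edgeR) without the Gl2-KD library of experiment 3 at 72 h, the lowest of its group. There the 72 h value went from -0.48 to -0.80. A fit that blocked each combination of experiment and time gave -0.47 with an adjusted p of 0.0251, and it called 5.79% of all genes.

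**Figure D3:**
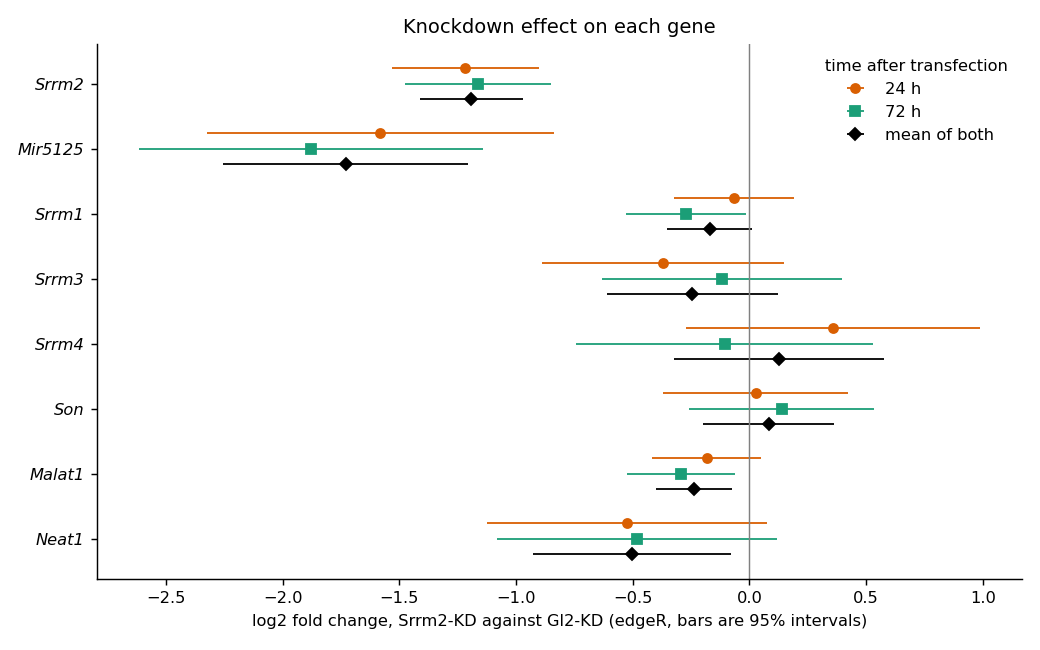
Log2 fold change of Srrm2-KD against Gl2-KD for each gene at 24 h (circles), at 72 h (squares) and averaged over both (diamonds), with 95% intervals from edgeR. The averaged intervals of *Srrm2*, *Mir5125*, *Malat1* and *Neat1* lie below 0, and of these *Srrm2* and *Mir5125* passed the threshold after adjustment.

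In the comparison averaged over both times, 2 of the 8 genes were called, both lower, where edgeR called 0.067% of all genes (0.0361% lower). DESeq2 called 4.68% of the genes it adjusted there and limma-voom 0.474% of all genes, and both called the same 2 of the 8. Of these, *Srrm2* is the siRNA target and *Mir5125* lies in its intron. The other 6 were not called, and by p before adjustment *Malat1* and *Neat1* were below 0.05, as were 13.6% of all genes. The median log2 fold change over the 8, with the siRNA target and *Mir5125* included, was -0.24 and that over all genes tested -0.003. Being lower in 6 of 6 pairs held for 4 of the 8 and for 7.25% of all genes. The 4 were the target *Srrm2*, *Mir5125*, *Malat1* and *Neat1*. At 24 h and at 72 h alone edgeR called 0 of the 8 and 0% of all genes. A p below 0.05 before adjustment was found for 2 of the 8 at 24 h (2.62% of all genes). These were *Srrm2*, the siRNA target, and *Mir5125* in its intron. At 72 h 4 of the 8 had one (12.9% of all genes), namely *Srrm2*, *Mir5125*, *Srrm1* and *Malat1*. DESeq2 called *Srrm2* and *Mir5125* at each time, where it called 0.184% (24 h) and 3.26% (72 h) of the genes it adjusted, and limma-voom called *Srrm2* alone, with 0.0103% and 0.0206% of all genes.

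The size of the knockdown effect was then compared between the times. For *Srrm2* the log2 fold change at 72 h minus that at 24 h was 0.05 ± 0.20 (SE; 95% interval -0.38 to 0.49), and for *Mir5125* it was -0.30 ± 0.46 (95% interval -1.32 to 0.73). For the other 6 genes it lay between -0.47 (*Srrm4*) and 0.25 (*Srrm3*). None of the 8 differences was called by edgeR (0% of all genes) or limma-voom, and 0 had a p below 0.05 before adjustment (1.64% of all genes). DESeq2 called 0.0103% of all genes in this comparison and none of the 8.

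Between the times, *Malat1* and *Srrm3* had the differences nearest to the threshold. From 24 h to 72 h, *Malat1* was higher in 3 of 3 experiments in both siRNAs, with log2 differences of 0.41 ± 0.11 (SE) in Gl2-KD (adjusted p = 0.0821) and 0.30 ± 0.11 in Srrm2-KD (adjusted p = 0.20). DESeq2 called the former (adjusted p = 0.0218), where it called 7.41% of the genes it adjusted. *Srrm3* was also higher at 72 h in 3 of 3 experiments in both siRNAs, by 0.41 ± 0.23 in Gl2-KD and 0.67 ± 0.24 in Srrm2-KD (adjusted p = 0.414 and 0.202). In Srrm2-KD its libraries at the 2 times did not overlap, as held for 3.58% of all genes in this direction. *Neat1* went up with time in experiments 1 and 2 and down in experiment 3, by 0.91, 0.57 and -0.84 on the log2 scale in Gl2-KD. EdgeR called 0 of the 8 with time in either siRNA, against 1.45% of all genes in Gl2-KD and 0.551% in Srrm2-KD. Limma-voom also called 0 of the 8, against 2.48% of all genes in Gl2-KD and 1.33% in Srrm2-KD. Before adjustment, 1 of the 8 had a p below 0.05 in Gl2-KD (16.8% of all genes) and 2 had one in Srrm2-KD (16.3%).

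Some of these genes also differed between experiments. In experiment 1, averaged over its 4 libraries, *Son* was 2.35-fold, *Srrm2* 2.29-fold, *Malat1* 2.29-fold and *Srrm1* 1.45-fold the mean of experiments 2 and 3. These log2 differences were 1.24 ± 0.13 (SE), 1.198 ± 0.10, 1.19 ± 0.08 and 0.53 ± 0.09, with edgeR adjusted p-values of 1.87e-05, 4.28e-06, 6.86e-07 and 0.000364. All 4 libraries of experiment 1 lay above all 8 others for *Son*, *Malat1* and *Srrm1*, as held for 16.7% of all genes. The other members, *Srrm4* (0.49), *Neat1* (0.12), *Mir5125* (-0.26) and *Srrm3* (-0.39), were not called. These are 4 of the 8 called higher, where 27.3% of all genes were called higher and 53.4% in either direction. The share of mitochondrial counts was also highest in experiment 1, and its part in the result was not tested. *Mir5125* did not share the difference of its host gene, so its counts were the smallest share of *Srrm2* counts in experiment 1 within every group, at 0.331% to 0.566%.

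The other genes of the pathway were taken from 6 lists, which hold these members too. In the averaged comparison edgeR called 0.067% and limma-voom 0.474% of all genes, and DESeq2 4.68% of the genes it adjusted. In the SRRM family, 1 of 4, the siRNA target *Srrm2*, was called lower. The median of -0.21 includes it, and *Srrm1*, *Srrm3* and *Srrm4* were at -0.17, -0.25 and 0.13. Of the speckle scaffold and speckle-enriched proteins, 24 of 25 were in the table and tested (*Ddx39a* was not matched), and in the averaged comparison 1, *Srrm2*, was called. Of them 13 were higher and 11 lower, with a median of 0.02 against -0.003 over all genes. The smallest edgeR p-values after *Srrm2* were those of *Nktr*, *Sap18* and *Alyref*. *Nktr*, a cyclophilin with a serine/arginine-rich tail, was at -0.32 ± 0.07 (SE; adjusted p = 0.113). *Sap18*, a subunit of a complex with RNPS1, was at 0.32 ± 0.09 (adjusted p = 0.17), and *Alyref*, an mRNA export adaptor, at 0.23 ± 0.08 (adjusted p = 0.274). Outside edgeR's main fit, DESeq2 called *Nktr* and *Sap18* (adjusted p = 0.0109 and 0.0281).

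None of the 12 speckle kinases, kinases of serine/arginine-rich proteins among them, was called by edgeR in a knockdown comparison. It called 0.067% of all genes in the averaged one and 0% at each time alone. In the averaged one 0 of the 12 had a p below 0.05 before adjustment, against 13.6% of all genes. Their median was 0.04, and the smallest p-values were those of *Pip5k1a* (0.09 ± 0.08), a lipid kinase, and the cyclin-dependent kinases *Cdk13* (-0.16 ± 0.14) and *Cdk11b* (0.07 ± 0.07). DESeq2 and limma-voom also called 0 of the 12, where they called 4.68% of the genes adjusted and 0.474% of all genes in the averaged comparison.

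None of the 17 paraspeckle proteins tested was called by edgeR, DESeq2 or limma-voom in the averaged comparison, and 3 had an unadjusted p below 0.05, as did 13.6% of all genes. The median of the list was -0.01. *Hnrnph3*, an RNA-binding protein (-0.28 ± 0.09; adjusted p = 0.197), *Smarca4*, the ATPase of a chromatin remodeller (-0.17 ± 0.06; adjusted p = 0.259), and *Cpsf7*, a 3′-end processing factor (0.15 ± 0.06; adjusted p = 0.334), had the smallest p-values.

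Of 13 microexon regulators, 12 were tested, *Rbfox1* having failed the filter, and edgeR and limma-voom called 0. The median was -0.05, and 2 had an unadjusted p below 0.05, as did 13.6% of all genes. These were *Nova1* (-0.34 ± 0.11; adjusted p = 0.201), which DESeq2 called (adjusted p = 0.0457), and *Rbfox2* (-0.17 ± 0.06; adjusted p = 0.238), both RNA-binding splicing regulators. *Ptbp2*, the neural polypyrimidine tract binding protein, came next with 0.25 ± 0.14 (adjusted p = 0.485).

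The 14 nuclear long noncoding RNAs, with *Malat1* and *Neat1* among them, had 10 lower and 4 higher members and a median of -0.08. EdgeR and limma-voom called 0, and 5 of the 14 had an unadjusted p below 0.05, all lower, against 13.6% of all genes in either direction. Beside *Malat1* and *Neat1* these were *Firre* (-0.61 ± 0.20; adjusted p = 0.224), an X-linked RNA with repeats, and *Meg3* (-0.21 ± 0.08; adjusted p = 0.282) and *Mirg* (-0.27 ± 0.12; adjusted p = 0.347), of the imprinted Dlk1-Dio3 region. DESeq2 called *Firre* (adjusted p = 0.0442), which was at 5.79 ± 4.78 and 7.92 ± 6.79 CPM (SD, n = 3) in Gl2-KD at 24 h and 72 h. In Srrm2-KD it was at 4.99 ± 4.73 and 4.93 ± 4.91 CPM. Between experiments, 9 of the 14 were called higher in experiment 1 and 1 lower, with a median of 0.63, where 27.3% of all genes were called higher and 26.1% lower with a median of 0.01. Of the 24 tested genes of the speckle scaffold list 12 were called higher and 3 lower, with *Thoc2* of the mRNA export complex THO at 1.44 ± 0.09.

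**Figure D4:**
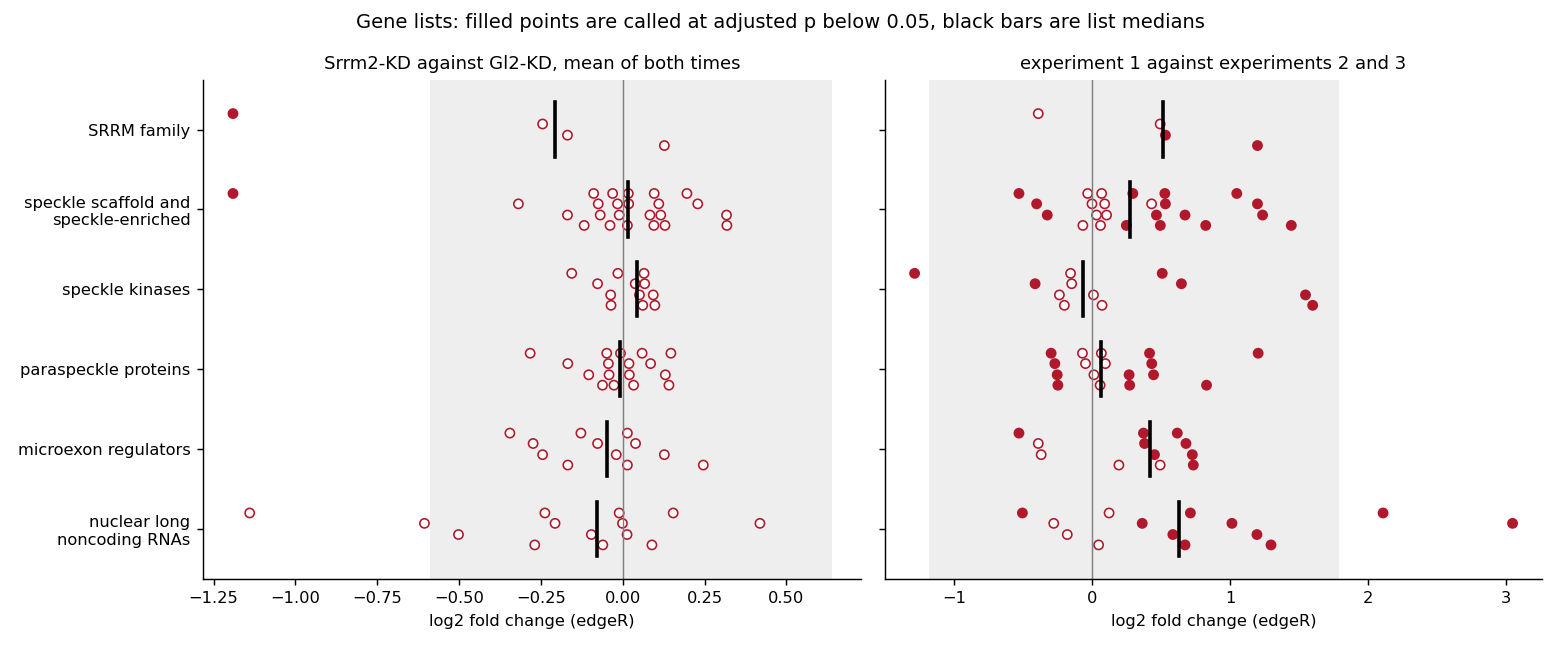
Log2 fold change (edgeR) of every tested gene of the 6 lists for the averaged knockdown (left) and for experiment 1 against the others (right). Filled points passed the threshold, black bars are list medians, and the grey band spans the 5th to 95th percentile of all genes. On the left the filled point is *Srrm2*, which is in 2 lists, and on the right filled points stand in every list.

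The genes whose log2 CPM ran most like each member over the 12 libraries were found by Pearson's r, as a description across libraries that share siRNA, time and experiment. They were *Ppp1r9b*, *Chka* and *Ankle1* for *Srrm2* (0.926, 0.92 and 0.916), *Abca1*, *Prkx* and *Iqce* for *Srrm1* (0.978, 0.978 and 0.975), and *Heatr1*, *Ranbp2* and *Akap11* for *Son* (0.996, 0.996 and 0.994). For *Malat1* they were *Bahcc1*, *Ate1* and *Spag9* (0.989, 0.988 and 0.986), and for *Mir5125* they were *Cox6b2*, *Fam3a* and *Haghl* (0.968, 0.967 and 0.961). *Srrm3* was closest to *Bhlhe41*, *Tmem203* and *Tbx6* (0.949, 0.943 and 0.941). *Srrm4* was closest to *Pabpc1l2b-ps*, *Gm15384* and *4933413C19Rik* (0.921, 0.917 and 0.911), and *Neat1* to *Gm5577*, *Gm8116* and *Gm10182* (0.875, 0.844 and 0.839). No member was among the 3 most like another. Between members r was highest for *Srrm2* with *Srrm1* (0.765), *Srrm1* with *Son* (0.76) and *Srrm2* with *Malat1* (0.755), and that of *Srrm2* with *Mir5125* was 0.59.

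None of the neighbouring genes given here passed the test for the knockdown. Beside *Srrm2*, *Flywch2* had an averaged log2 fold change of -0.17 ± 0.17 (SE), and *Elob*, which shares 4 exonic nucleotides with *Srrm2* on the opposite strand, had 0.02 ± 0.08. Beside *Son*, *Gart* and *Donson* had -0.13 ± 0.07 and -0.09 ± 0.08. Beside *Malat1*, *Gm37376*, an unclassified gene antisense within *Malat1* that lies between it and *Neat1* in the order of tested genes, had -0.17 ± 0.36. *Frmd8os*, an antisense gene next to *Neat1*, had the largest value of these, 1.26 ± 0.43 with an adjusted p of 0.235.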

How the data were processed

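PolyA RNA of the 12 libraries was sequenced from a stranded kit. Estimated counts were deposited, 1 for each gene in each library and not scaled to library size. The authors obtained them with Kallisto (0.46.1 in the submitters' processing notes), by pseudo-alignment to the transcripts of GENCODE M24. RNA spike-ins were added by the authors, and 0 spike-in rows are in the table. Counts are estimates shared among transcripts with common sequence. Smaller genes are annotated on the same strand within the exons of *Malat1* and *Neat1*, while *Mir5125* shares 0 exonic nucleotides with *Srrm2*. With a gene on the opposite strand, *Malat1* shares 453 exonic nucleotides, *Son* 103, *Srrm4* 68 and *Srrm2* 4. The effect of this on the counts was not tested.

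Of 42450 genes, 42156 were matched to GENCODE M21 (GRCm38). The rounded counts went into edgeR 4.0.16 under R 4.3.3 (TMM, filterByExpr with a minimum count of 10 and a minimum total of 15, 19410 genes left). All 12 libraries were fitted together, with terms for the 4 groups and for the 3 experiments as the replicate block (glmQLFit with legacy=TRUE, glmQLFTest). P-values were adjusted by Benjamini-Hochberg over all genes and called below 0.05. The study's own covariate was the RNA processing day, which the labels do not give. SE is the log2 fold change divided by the square root of F, and intervals are 95%. Libraries with the same experiment number, which the labels give, belonged together. After removal of group means, their 18 pairs had correlations across genes of 0.281 to 0.747. For 36 pairs with different numbers, which are not all such pairs, they were -0.628 to 0.231. The common biological coefficient of variation was 0.2199. At totals of 73933196 to 153343831 counts, counting error among the 8 members is largest for *Srrm3*, *Srrm4* and *Mir5125*.

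The alternatives were DESeq2 1.42.0, limma 3.58.1 (voom), other scalings, filters and blocks, and leaving out each library or experiment. The tests were tested on simulated data. The members, gene lists and tests were chosen with earlier results of these data known. Named genes are the 8 members, in each list the 3 other genes with the smallest p in the averaged comparison and any called, the 3 genes most like each member, and the neighbours of *Srrm2*, *Son*, *Malat1* and *Neat1*, of which 1 is not reported here. *Thoc2*, *Elob* and the DESeq2 calls were named after their values were seen. The siRNA sequences and splicing were not analysed here.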

Additional observations from a re-analysis of the deposited data

How the results depend on the processing

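Over 1464 recomputed log2 fold changes of the 8 members, 1341 kept their direction and their side of the threshold, 16 lost their call, 34 gained one and 73 changed sign. In the comparison averaged over both times, 2 of the 8 genes were called; without the replicate block for the experiments that number was 0, with experiment 1 against the others as the block it was 1, and over the libraries and experiments left out it was 0 to 2. At 24 h the number called rose from 0 to 2 with DESeq2 and to 1 with limma-voom, legacy=FALSE, robust=TRUE, no filter on low counts or at least 10 counts in every library, and was 0 to 2 over the leave-outs. At 72 h it rose from 0 to 2 with DESeq2, no filter, a block for each experiment and time or each time fitted alone, to 1 with limma-voom, legacy=FALSE or at least 10 counts in every library, and was 0 to 2 over the leave-outs. With time in Gl2-KD it rose to 1 with DESeq2, and in experiment 1 it was 4 to 5 over the leave-outs. The genes behind these calls at 24 h and 72 h were *Srrm2* and *Mir5125*. Over all genes, the main fit called 0% at each time. At 24 h DESeq2 called 0.184% of the genes it adjusted and limma-voom 0.0103% of all genes. At 72 h these shares were 3.26% and 0.0206%. The block for each experiment and time called 3.73% at 72 h, and the 72 h libraries fitted alone 1.78%. Shares for the other settings are not reported here.

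In the lists, DESeq2 and limma-voom called 1 gene of the SRRM family and of the speckle scaffold list at 24 h and at 72 h, which was *Srrm2*. In the averaged comparison DESeq2 called 3 of the speckle scaffold list, 1 microexon regulator and 1 long noncoding RNA, and at 72 h 1 long noncoding RNA. Of the genes it adjusted, it called 4.68% in the averaged comparison and 3.26% at 72 h. The replicate block for each experiment and time also called *Neat1*, *Nktr*, *Alyref*, *Hnrnph3*, *Ptbp2* and *Nova1* in the averaged comparison. That fit called 5.79% of all genes there. At 72 h alone it also called *Nktr* (-0.39, adjusted p = 0.0265 by edgeR) and *Hnrnph3* (-0.37, adjusted p = 0.0458 by edgeR), with 3.73% of all genes. The cause was not tested.

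The values that changed sign were in comparisons in which the gene was not called. Without the replicate block *Son* was at -0.017 at 24 h and at 0.019 with time in Gl2-KD, and *Srrm2* at -0.039 for the difference between times, 0.02 with time in Gl2-KD and -0.019 with time in Srrm2-KD. *Srrm2* with time in Gl2-KD was at 0.001 with limma-voom, and *Son* with time in Srrm2-KD was at -0.012 with library totals only and -0.008 with no filter. Leaving out libraries or experiments gave, for *Son*, -0.206 to 0.195 at 24 h, -0.055 to 0.252 at 72 h, -0.036 to 0.161 averaged, -0.077 to 0.339 for the difference, -0.267 to 0.118 with time in Gl2-KD and -0.245 to 0.256 with time in Srrm2-KD. For *Srrm2* it gave -0.116 to 0.214 for the difference, -0.113 to 0.137 with time in Gl2-KD and -0.119 to 0.205 in Srrm2-KD. *Srrm1* ran from -0.166 to 0.024 at 24 h and -0.142 to 0.047 with time in Gl2-KD, *Srrm3* from -0.244 to 0.079 at 72 h, and *Srrm4* from -0.36 to 0.231 at 72 h and -0.074 to 0.267 with time in Gl2-KD. *Mir5125* ran from -0.637 to 0.357 for the difference and -0.18 to 0.784 with time in Srrm2-KD, and *Malat1* from -0.222 to 0.063 for the difference. *Neat1* ran from -0.302 to 0.295 for the difference, -0.093 to 0.726 with time in Gl2-KD and -0.029 to 0.304 in experiment 1. Depth limits *Srrm3*, *Srrm4* and *Mir5125* most, and the fits without a library leave 2 libraries in a group, whose spread is taken from all groups.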
